A study of Arabidopsis thaliana with 36 samples.

Results

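The data described here are 6 of the 36 arrays of an Arabidopsis thaliana experiment. They are the apical regions of FRI flc-3 plants after 3 long days (3 arrays) and the apical regions of the same line after 0 long days, still in the short days that came before (3 arrays). In FRI flc-3, a Col background holds the FRI allele of the Sf-2 accession together with flc-3, a fast-neutron mutant allele of FLC. All plants compared share that FRI allele and that FLC mutation, so the comparison is one of days and not of genotypes. Of the other lines used for comparison, flc-3 has the FLC mutation in Col without the Sf-2 allele, and FRI has the Sf-2 allele with a functional FLC, with 3 arrays each at day 3 and day 0. The labels give soil-grown plants at 23 °C with 10 to 18 leaves. The stage in the labels is transition to flowering at day 3 and vegetative at day 0 for FRI flc-3 and for flc-3, and vegetative on both days for FRI.

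In Arabidopsis, long days are read in the leaf, where the clock-controlled proteins GIGANTEA and CONSTANS raise a mobile flowering signal. That signal reaches the shoot apex and acts there with the bZIP protein FD, after which MADS-box genes of the inflorescence rise. FRI raises FLC, a MADS-box repressor that holds this step back, and without FLC the FRI allele delays flowering little. The day 3 arrays thus sample an apex early after the change to long days, in a line with mutant FLC.

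No group was kept in short days until day 3, so long days and 3 further days of growth cannot be told apart. The hour of harvest is not given in the sources used here, and for genes with a daily rhythm a change in level and a change in timing cannot be told apart. Nothing in the labels tells whether the 3 replicates of a day are separate batches of plants. The p-values then measure only the spread between arrays within groups, pooled over the 12 groups of the series. The apical region is a mixed tissue, in which fewer cells of a type and less RNA per cell cannot be told apart. No probe set carries the name FLC or FRI in the annotation used here, and the level of the mutated gene was not analysed here.

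Values are MAS5 signals, the brightness of an ATH1 probe set on a linear scale. Differences are on the log2(signal + 16) scale, so that the change of a dim gene is understated. The median signal per array lay between 40.9 and 42.0. A probe set counted as dim on an array below that array's 40th percentile, which lay between 21.1 and 23.7. The arrays correlated at 0.989 to 0.992 within day 3, at 0.985 to 0.991 within day 0, and at 0.972 to 0.979 between the days. Replicate 3 of day 0 was the array farthest from its group. The number of arrays limits the precision.

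The signal of 2502 of 14912 tested probe sets (16.8%) differed between day 3 and day 0 at an adjusted p under 0.05 in limma. Of these, 1341 were higher and 1161 lower at day 3. The change was at least 2-fold for 116 of them, 42 higher and 74 lower. Per locus, with the brightest probe set taken, 638 of 8041 loci (7.93%) rose and 549 (6.83%) fell, around a median log2 difference of 0.01. Without replicate 3 of day 0 the count of called probe sets was 2234, with 1241 higher and 993 lower. Over all tested probe sets, 4281 had day 3 and day 0 arrays that did not overlap, 2355 of them called.

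At the offset of 16, the largest rise among named loci was that of AT4G33560, with signals of 199, 197 and 169 at day 3, against 40.2, 37.9 and 36.2 at day 0. Every day 3 array lay far above every day 0 array, and the log2 difference was 1.92 ± 0.08 (SE, adjusted p = 2.3e-19). AT4G27450 gave 940.4, 811 and 746 at day 3, against 289, 318 and 282 at day 0, a difference of 1.44 ± 0.09 (SE, adjusted p = 2.4e-14). It was the brightest of the 12 largest risers on both days. AT1G68440 measured 85.5, 102 and 122 at day 3, against 25.0, 28.1 and 30.3 at day 0, a difference of 1.43 ± 0.15 (SE, adjusted p = 2.4e-09). AT4G21870 read 127, 130.04 and 139 at day 3, against 39.3, 43.6 and 53.3 at day 0, and AT4G34400 read 203.5, 220.3 and 225 at day 3, against 101, 71.6 and 86.3 at day 0. Their log2 differences were 1.28 (adjusted p = 8.8e-13) and 1.19 (adjusted p = 5.4e-12). The loci of largest change were picked by this difference among called loci whose arrays did not overlap, so a separation of the days was required.

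A few of the largest risers started from signals that were dim on all 3 day 0 arrays. THI2.1, which encodes a thionin, a small antimicrobial peptide, gave 57.9, 55.8 and 70.0 at day 3, against 15.7, 22.5 and 13.7 at day 0, a difference of 1.22 ± 0.11 (SE, adjusted p = 5.3e-11). AT4G19430 had 32.8, 32.3 and 32.6 at day 3, against 3.17, 5.81 and 4.03 at day 0, a difference of 1.26 ± 0.11 (SE, adjusted p = 7.2e-11), and its 3 day 3 arrays were nearly equal. AT5G66985 showed 35.2, 35.0 and 29.2 at day 3, against 7.44, 1.15 and 6.71 at day 0, and AT3G29970 showed 46.1, 37.0 and 38.5 at day 3, against 9.70, 10.3 and 12.2 at day 0. For these dim starting levels the offset compresses the difference, and the rise of AT4G19430 was larger at an offset of 1, at a log2 difference of 2.68, as was that of AT5G66985, at 2.71, and that of AT3G29970, at 1.82. The order of the risers depends on the offset, since AT4G33560 rose by 2.27 at an offset of 1, less than AT4G19430 and AT5G66985. Among probe sets without a gene name, 258497_at gave 269, 261 and 254 at day 3, against 38.7, 40.4 and 42.5 at day 0, and 247553_at gave 64.4, 70.9 and 64.1 at day 3, against 4.78, 2.73 and 2.41 at day 0. Their rises were 2.30 for 258497_at and 2.096 for 247553_at, and in the other order at an offset of 1, at 2.66 for 258497_at and 4.01 for 247553_at.

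The largest falls exceeded the largest rises in size at the offset of 16. AT1G56300 gave 13.2, 15.6 and 10.9 at day 3, against 247, 246 and 232 at day 0, dim on all 3 arrays at day 3, with a log2 difference of -3.14 ± 0.10 (SE, adjusted p = 4.8e-23). AT4G30650 gave 102, 113 and 129.6 at day 3, against 804, 763 and 653 at day 0, a difference of -2.53 ± 0.10 (SE, adjusted p = 1.1e-20). AT1G13930, among the bright loci at day 0, had 588, 595 and 571 at day 3, against 2037, 2049.9 and 1769 at day 0, a difference of -1.71 ± 0.07 (SE, adjusted p = 8.9e-20). In each of these loci the day 3 arrays lay far below the lowest day 0 array, where the pick itself required arrays that did not overlap. The cytochrome P450 gene CYP71B26 had 22.2, 21.2 and 24.5 at day 3, against 117, 108 and 115 at day 0, and CCL, whose transcript is known to cycle with the clock, had 118, 111 and 107 at day 3, against 413, 394 and 369.6 at day 0. MSRB5, a methionine sulfoxide reductase that repairs oxidised proteins, gave 12.3, 13.6 and 14.4 at day 3, against 72.4, 74.6 and 83.8 at day 0. Their log2 differences were -1.74, -1.67 and -1.66, with adjusted p of 2.1e-14, 2.8e-17 and 1.9e-13. AT4G34950 averaged 58.5 at day 3 and 219 at day 0, and AT1G70820 averaged 23.3 at day 3 and 95.4 at day 0. Without a name, 263046_at fell to 42.9 at day 3, against 293 at day 0, and 263548_at averaged 800.2 at day 3 and 2909 at day 0.

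**Figure D1:**
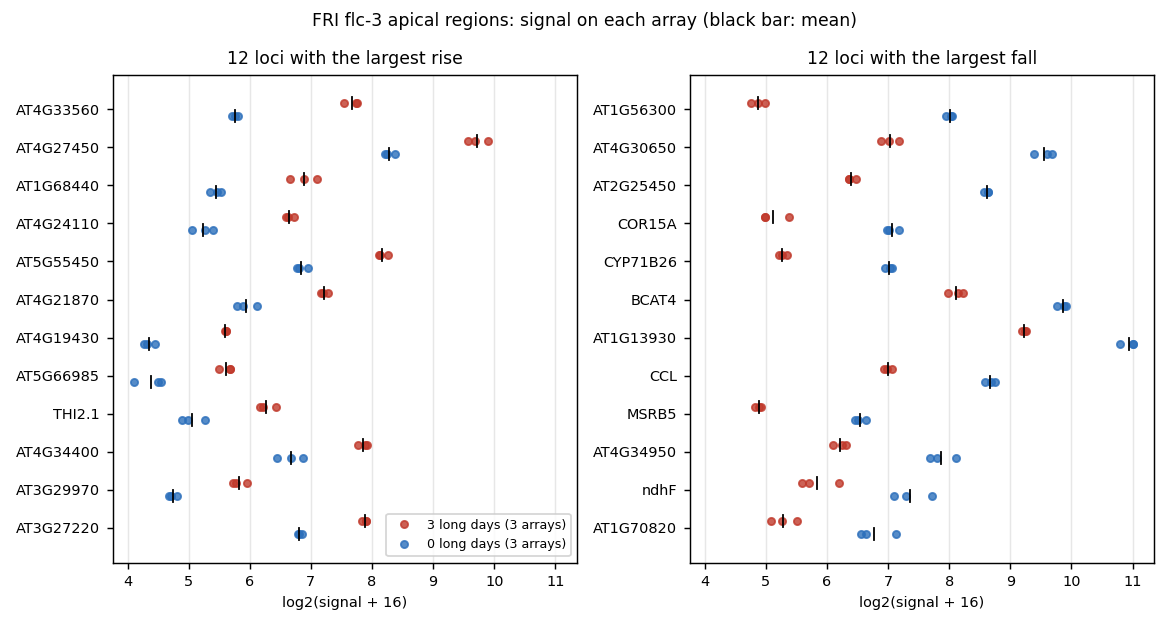
Signal on each of the 6 FRI flc-3 arrays, as log2(signal + 16), for the 12 named loci of largest rise and the 12 of largest fall. Red points are the 3 arrays of day 3, blue points the 3 arrays of day 0, black bars the means, and the arrays of the 2 days do not overlap for any of these loci because the naming rule required it.

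Among the genes that promote flowering at the apex, AGL42 and FD rose. Many known genes of each pathway have no named probe set in the annotation used here, so a list holds only its tested members. Of the 3 tested floral integrators, 2 were higher at day 3, against 7.93% of all loci, and AGL24 was not called, with a median log2 difference of 0.60 beside 0.01 over all loci. AGL42, a MADS-box gene of the SOC1 family that promotes flowering, gave 40.3, 40.01 and 40.02 at day 3, against 13.6, 17.8 and 13.0 at day 0. The day 0 arrays were all dim and the day 3 arrays were nearly equal, and the difference was 0.87 ± 0.09 (SE, adjusted p = 3.1e-09), or 1.39 at an offset of 1. FD, the bZIP partner of the long-day signal at the apex, gave 56.2, 56.6 and 53.6 at day 3, against 37.0, 35.8 and 22.5 at day 0, a difference of 0.60 ± 0.11 (SE, adjusted p = 0.00013). The lowest day 0 array of FD was replicate 3, and even the highest lay well below all day 3 arrays. AGL24, another MADS-box promoter of flowering, had 191, 193 and 194 at day 3, against 187, 189 and 162 at day 0. Its groups did not overlap, but its difference of 0.10 (adjusted p = 0.52) was below the threshold.

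UFO, an F-box protein that acts with LEAFY in floral meristems, was the 1 tested gene of floral meristem and organ identity. It had 13.3, 3.32 and 6.47 at day 3, against 2.62, 3.14 and 1.80 at day 0, dim on all 6 arrays, with a difference of 0.33 (adjusted p = 0.078). Without replicate 2 of day 3 its adjusted p was 0.019. SMZ, an AP2-like repressor of flowering, was the 1 tested floral repressor, with 15.3, 15.97 and 16.1 at day 3, against 21.1, 20.08 and 24.6 at day 0 and a difference of -0.25 (adjusted p = 0.088), or an adjusted p of 0.049 in eBayes without the trend. Of the genes that regulate FLC, FY, LD and AT2G30120 were tested and none was called in limma, nor at an unadjusted p under 0.05, with differences between -0.01 and 0.08. PUCHI, an AP2-type factor that helps to set floral meristem identity, was looked up after its values were known and gave 20.0, 30.9 and 17.43 at day 3, against 13.1, 9.73 and 6.90 at day 0, a difference of 0.57 (adjusted p = 0.0038), with replicate 2 the highest at day 3 and an adjusted p of 0.054 without that array.

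The tested clock and photoperiod genes changed in both directions. GI, the clock protein that links the clock to the long-day response, read 62.6, 65.1 and 71.9 at day 3, against 146, 157 and 142 at day 0, about a 2-fold fall with a difference of -0.99 ± 0.09 (SE, adjusted p = 1.7e-10). AT2G47890 went further down, to 2.81, 3.998 and 2.69 at day 3 against 25.4, 22.1 and 31.3 at day 0, a difference of -1.14 ± 0.10 (SE, adjusted p = 1.1e-10), and it was dim on all day 3 arrays, with a difference of -2.71 at an offset of 1. AT1G69570 was dim on all 6 arrays and gave 21.6, 18.4 and 18.7 at day 3, against 5.82, 13.9 and 14.7 at day 0, a difference of 0.39 (adjusted p = 0.021), or 0.81 at an offset of 1. That rise rested on the day 0 array of replicate 1: without it the difference was 0.23 (adjusted p = 0.22), and without replicate 1 of day 3 the adjusted p was 0.089. HYH, a bZIP relative of the light-signalling factor HY5, rose to 66.3, 51.3 and 50.8 at day 3, against 23.6, 27.2 and 24.00 at day 0, with a difference of 0.81 ± 0.09 (SE, adjusted p = 1.7e-08). The highest of its day 3 arrays was replicate 1, and all 3 lay above the day 0 arrays.

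**Figure D2:**
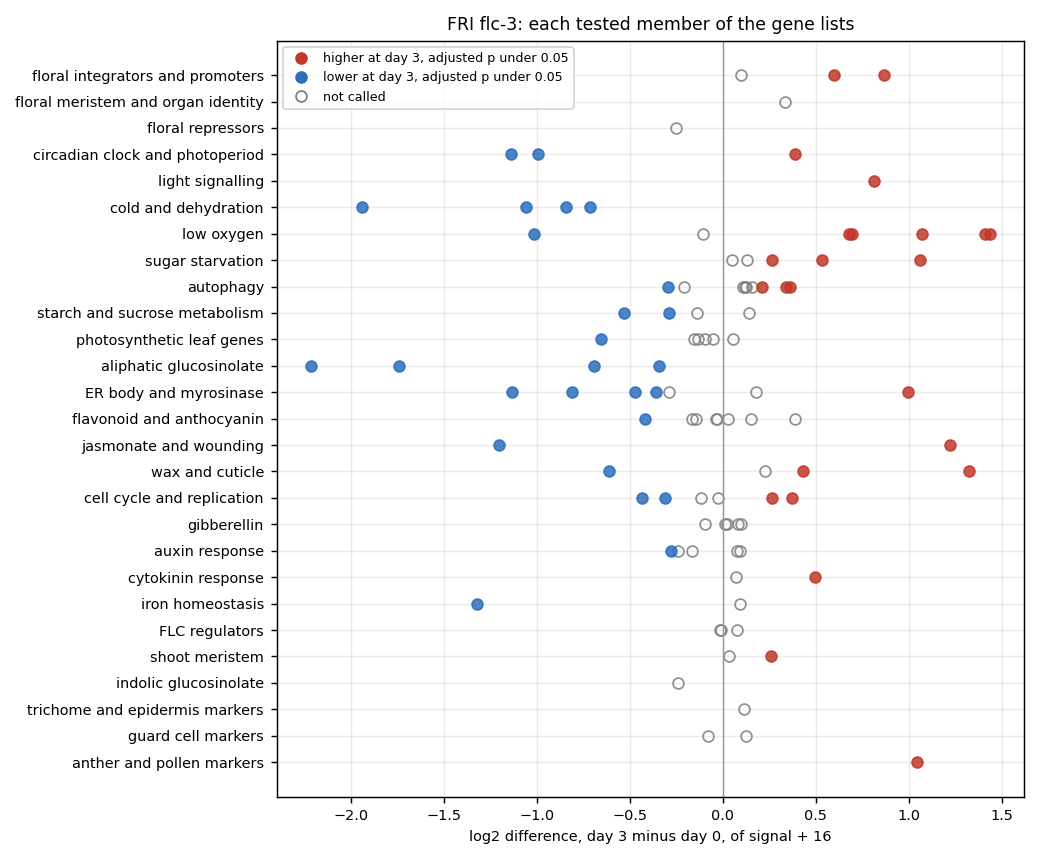
Log2 difference of day 3 minus day 0 in FRI flc-3 for each tested member of the gene lists, 1 point per locus. Filled red points rose and filled blue points fell at an adjusted p under 0.05, open points were not called, and the cold and the aliphatic glucosinolate lists have blue points only.

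All 4 tested genes of cold and dehydration fell, against 6.83% of all loci, with a median difference of -0.95. COR15A and COR15B encode chloroplast proteins that protect membranes in the cold, and they are neighbouring copies whose probe sets may share signal. COR15A had 15.7, 25.6 and 15.8 at day 3, against 113, 129 and 109.9 at day 0, a difference of -1.94 ± 0.12 (SE, adjusted p = 2e-14), and COR15B had 30.2, 34.1 and 26.1 at day 3, against 74.9, 74.5 and 90.4 at day 0, a difference of -1.06 ± 0.12 (SE, adjusted p = 1.5e-08). COR47 and LTI30 encode dehydrins, which protect cells that lose water. COR47 gave 113, 146 and 109.8 at day 3, against 232, 240.0 and 223 at day 0, and LTI30 gave 6.13, 11.6 and 11.6 at day 3, against 28.3, 21.1 and 29.1 at day 0, dim on all day 3 arrays, with differences of -0.84 (adjusted p = 3e-07) and -0.71 (adjusted p = 0.00011). At an offset of 1 LTI30 fell by 1.37. For all 4 genes the highest day 3 array was below the lowest day 0 array.

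Of 7 tested loci on the low oxygen list, 5 rose and 1 fell, against 7.93% of all loci higher and 6.83% lower, with a median of 0.70. The risers include AT4G27450, already described, AT4G24110 with 82.2, 80.7 and 90.0 at day 3, against 22.6, 17.1 and 26.1 at day 0, AT3G27220 with 213.8, 224 and 223 at day 3, against 99.1, 96.4 and 94.0 at day 0, and AT3G10040, whose difference was 0.68 (adjusted p = 6.3e-07). The other, AT1G33055, gave 123, 65.3 and 116 at day 3, against 47.1, 58.4 and 58.5 at day 0, where replicate 2 of day 3 was close to the day 0 arrays, and the difference was 0.70 (adjusted p = 0.00087). Against these, PDC2, a pyruvate decarboxylase of ethanol fermentation, fell to 62.1, 61.1 and 58.6 at day 3, against 139, 130.3 and 148 at day 0, a difference of -1.02 ± 0.13 (SE, adjusted p = 4.4e-07). AT3G10020 was not called, at -0.11 (adjusted p = 0.47). The 1 tested fermentation enzyme of the list was thus the 1 member that fell.

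Genes that rise when sugar is short were partly higher. AT3G15450 gave 869.5, 887 and 835 at day 3, against 444, 409 and 370.0 at day 0 and a difference of 1.06 ± 0.10 (SE, adjusted p = 1.5e-10). AKINBETA1, a subunit of the energy-sensing kinase SnRK1, gave 167, 172 and 148 at day 3, against 121, 113 and 89.2 at day 0, a difference of 0.54 ± 0.09 (SE, adjusted p = 1.9e-05). MCCA, a subunit of the enzyme that breaks down leucine, had overlapping arrays and a difference of 0.27 (adjusted p = 0.037), whereas its partner subunit MCCB and the sugar transporter SWEET1 were not called, at 0.13 and 0.05. These 3 risers of 5 compare with 7.93% of all loci. MCCA lost its call without day 3 replicate 1 or 3 or day 0 replicate 1 or 2 (adjusted p from 0.057 to 0.22).

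Autophagy genes, which encode the machinery that recycles cell contents, changed in both directions. Of 9 tested, 3 rose (ATG8E, ATG8F and APG8H) and 1 fell (ATG8D), against 7.93% of all loci higher and 6.83% lower, with a median of 0.12. ATG8F, one of the ATG8 proteins that coat the forming autophagosome, read 362, 329.9 and 364 at day 3, against 265, 278 and 282 at day 0, a difference of 0.34 ± 0.06 (SE, adjusted p = 0.00012). For the others the differences were 0.36 for ATG8E, 0.21 for APG8H and -0.30 for ATG8D. ATG8E lost its call without day 3 replicate 1 or 3 or day 0 replicate 1 or 2 (adjusted p from 0.13 to 0.22). APG8H lost its call without day 3 replicate 1, 2 or 3 or day 0 replicate 1 or 3 (adjusted p from 0.087 to 0.2). ATG8D lost its call without day 3 replicate 1 or 3 or day 0 replicate 3 (adjusted p from 0.055 to 0.098). Nor was APG8H called under quantile normalization, a common 75th percentile, no filter, an offset of 64 or eBayes without the trend (adjusted p from 0.053 to 0.077). In starch metabolism 2 of 4 tested genes fell, against 6.83% of all loci. DPE1, a plastid enzyme of starch breakdown, fell to 127, 126 and 120.2 at day 3, against 179, 183 and 198 at day 0 with a difference of -0.53 (adjusted p = 2e-08). APL3, a subunit of the enzyme that makes the starch precursor, fell by 0.29, while APL4 and SBE2.2 were not called. APL3 lost its call without day 0 replicate 2 or 3 (adjusted p from 0.056 to 0.071).

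The tested genes of aliphatic glucosinolates, sulphur-rich defence compounds made from methionine, fell. Of 4 tested, 4 were lower at day 3, against 6.83% of all loci, with a median of -1.22. BCAT4, the transaminase that starts the lengthening of methionine, gave 267, 282 and 237 at day 3, against 854, 927 and 951 at day 0, a difference of -1.74 ± 0.07 (SE, adjusted p = 2.3e-19). AT2G25450 fell further, to 73.4, 65.9 and 65.8 at day 3 against 380.0, 364 and 383 at day 0, a difference of -2.22 ± 0.11 (SE, adjusted p = 6.5e-18). In both genes the 3 arrays of a day lay close together and the days were far apart. AT2G31790 averaged 205.8 at day 3 and 344 at day 0, and GSTU20, a glutathione transferase, averaged 1149 at day 3 and 1464 at day 0, with differences of -0.69 (adjusted p = 9.9e-09) and -0.34 (adjusted p = 0.0028). On the indolic side, UGT74B1 was the 1 gene tested, and its difference of -0.24 (adjusted p = 0.054) was not called, with an adjusted p of 0.019 without replicate 2 of day 0 and of 0.029 without replicate 3 of day 3. It was called under a common 75th percentile (adjusted p = 0.029) and a filter at the 60th percentile (adjusted p = 0.045).

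Genes of the ER body, a compartment that stores a defence enzyme, changed in both directions. Of 7 tested, 1 rose and 4 fell, against 7.93% of all loci higher and 6.83% lower, with a median of -0.36. PYK10, the beta-glucosidase that fills the ER body, had 279.9, 279 and 283 at day 3, against 589, 667 and 649 at day 0. The 3 day 3 arrays were nearly equal, and the difference was -1.13 ± 0.07 (SE, adjusted p = 2.4e-14). JAL22, JAL33 and JAL34 encode jacalin-related lectins of the group known from PYK10 complexes, and they fell as well, JAL22 to 30.0, 29.7 and 32.7 at day 3, against 61.3, 59.7 and 77.7 at day 0, a difference of -0.81 ± 0.09 (SE, adjusted p = 2e-08). JAL33 and JAL34 had differences of -0.47 (adjusted p = 0.0041) and -0.36 (adjusted p = 0.015). JAL23, a lectin of the same family, went the other way with 159.7, 159 and 166 at day 3, against 72.6, 66.2 and 81.1 at day 0, a difference of 0.99 ± 0.08 (SE, adjusted p = 3e-11). Its day 3 arrays all lay above its day 0 arrays. NAI1, the bHLH factor needed for ER bodies, and NAI2, a protein of ER bodies, were not called, at -0.29 and 0.18. JAL34 lost its call without day 3 replicate 2 or day 0 replicate 3 (adjusted p from 0.094 to 0.13). Without replicate 1 of day 0, NAI1 was lower, at a difference of -0.47 (adjusted p = 0.011).

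Of the flavonoid and anthocyanin genes, 1 of 8 fell, against 6.83% of all loci, about as many as that share gives. That was AT5MAT, a malonyltransferase that decorates anthocyanins, with 117, 116 and 106 at day 3, against 159.6, 139 and 172 at day 0 and a difference of -0.42 (adjusted p = 0.00017). DFR, the enzyme that commits flavonoids to anthocyanin, gave 413, 386 and 379 at day 3, against 337, 396 and 326 at day 0, overlapping arrays and a difference of 0.15 (adjusted p = 0.12). Without replicate 2 of day 0, DFR was higher, at 0.23 (adjusted p = 0.019). UGT84A1 was dim on all 6 arrays and not called at 0.39 (adjusted p = 0.083), but at an offset of 1 it was called, with a difference of 1.36 (adjusted p = 0.047). With the offset set at the 10th percentile it was called too, at 1.21 (adjusted p = 0.044).

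The 2 tested thionin genes split. THI2.1 rose, as given above, whereas THI2.2 fell to 39.4, 50.7 and 54.1 at day 3, against 128, 135 and 129 at day 0, a difference of -1.20 ± 0.20 (SE, adjusted p = 2.4e-05). Of 4 tested wax and cuticle genes, 2 rose and 1 fell, against 7.93% of all loci higher and 6.83% lower. AT5G55450 rose with 259.9, 264 and 291 at day 3, against 96.0, 93.2 and 108 at day 0, a difference of 1.32 ± 0.09 (SE, adjusted p = 3.2e-13). AT5G59330 fell to 391, 408 and 428 at day 3, against 619, 642 and 638 at day 0, a difference of -0.61 ± 0.07 (SE, adjusted p = 3.2e-08). WSD1, which makes wax esters, was dim on all day 0 arrays and rose by 0.43, or by 0.78 at an offset of 1. WSD1 lost its call without day 3 replicate 1 or day 0 replicate 1 or 2 (adjusted p from 0.058 to 0.085). AT1G02190 was not called, at 0.23 (adjusted p = 0.14). Of the iron genes, AT1G47400 fell to 20.7, 27.6 and 24.6 at day 3, against 81.3, 86.3 and 85.7 at day 0, a difference of -1.32 ± 0.11 (SE, adjusted p = 9e-12). PYE, a bHLH regulator of the iron response, was not called, at 0.09 (adjusted p = 0.67).

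Of the hormone genes, none of the 5 tested gibberellin genes was called in limma, and none had an unadjusted p under 0.05. Among them GID1A, GID1B and GID1C, the receptors of the hormone, SLY1 and SPY had differences between -0.10 and 0.10. The lowest adjusted p of the 5 was 0.55. Of 5 tested members of the auxin list 1 fell, against 6.83% of all loci. That member, ARPN, is a plantacyanin and not a gene of auxin synthesis or signalling. ARPN fell to 528, 474 and 504 at day 3, against 619, 654 and 564 at day 0, a difference of -0.28 (adjusted p = 0.0019). The other members, GH3.3, WES1, IAA30 and the auxin biosynthesis gene YUC4, were not called. ARR15, a response regulator that rises with cytokinin, gave 283, 299.6 and 281 at day 3, against 194, 196 and 209.3 at day 0, a difference of 0.49 ± 0.08 (SE, adjusted p = 3.8e-05), and RR16 was not called, at 0.07.

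In the cell cycle list, 2 of 6 rose and 2 fell, against 7.93% of all loci higher and 6.83% lower. The Aurora kinases AUR1 and AUR2, which act at mitosis, averaged 290.0 at day 3 and 220.0 at day 0 and 227 at day 3 and 187 at day 0, with differences of 0.37 (adjusted p = 4.1e-05) and 0.27 (adjusted p = 0.015), while AUR3 was not called at -0.02. HTB1, a histone H2B, averaged 592 at day 3 and 807 at day 0, a difference of -0.44 (adjusted p = 6.6e-07). PRL, a subunit of the replication helicase, had overlapping arrays and a difference of -0.31 (adjusted p = 0.021). AUR2 lost its call without day 3 replicate 2 or day 0 replicate 1 (adjusted p from 0.071 to 0.1). PRL lost its call without day 3 replicate 1 or day 0 replicate 1 or 3 (adjusted p from 0.094 to 0.14).

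The tissue markers that were tested or measured changed as follows. The summed signal of 3 shoot meristem genes (ULT1, LAS and CLV3) was 178 to 191 at day 3 and 150.1 to 165 at day 0, higher through ULT1. ULT1, which limits meristem size, gave 144, 144 and 153 at day 3, against 121, 121 and 118 at day 0, a difference of 0.26 ± 0.07 (SE, adjusted p = 0.007), and LAS was not called, while CLV3, the stem cell peptide gene, averaged 8.67 at day 3 and 11.5 at day 0, below the filter. The 6 photosynthetic leaf genes summed to 5959 to 6463 at day 3 and 6568 to 7224 at day 0, with PORB giving the largest part of the fall. Of these PORB, an enzyme of chlorophyll synthesis, fell to 676, 793 and 631 at day 3, against 1179, 1184 and 965 at day 0, a difference of -0.65 (adjusted p = 1.9e-05), and RCA, PRK, SBPASE and the LHCB4 genes were not called. Sums for guard cells (4 genes), trichomes (TRY) and root hairs (EXPA7) overlapped between the days. Whether the share of leaf in the apical region moved with the other changes was not tested.

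The anther and pollen list summed to 31.6 to 40.1 at day 3 and 7.90 to 12.0 at day 0, mostly through AT5G44630. That locus gave 28.4, 25.2 and 21.7 at day 3, against 0.774, 6.40 and 5.01 at day 0, dim on all day 0 arrays, with a difference of 1.04 ± 0.14 (SE, adjusted p = 8.9e-07), or 2.60 at an offset of 1. The other measured members, AT5G45880, SPL and AMS, averaged 1.32, 3.64 and 5.52 at day 3 and 1.72, 1.44 and 2.11 at day 0.

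Of 69 tested plastid-encoded loci 4 were lower, a smaller share than the 6.83% of all loci, and none was higher (0 at an unadjusted p under 0.05 in limma), with a median of -0.15 beside 0.01 for the 7972 nuclear loci. The 4 were ndhF (NADH dehydrogenase-like complex), petN (cytochrome b6f complex), rps14 (plastid ribosome) and psbJ (photosystem II). The gene ndhF read 36.2, 32.4 and 57.4 at day 3, against 195, 140.1 and 120.3 at day 0, a difference of -1.53 ± 0.25 (SE, adjusted p = 1.8e-05). The summed signal of all 69 plastid-encoded loci was 54021, 65109 and 58674 at day 3, against 73959, 73029 and 49055 at day 0. The lowest of all 6 was replicate 3 of day 0, the array that stood apart. Without it, 16 of the 69 were lower and the median was -0.37, and without replicate 1 of day 0, 3 were lower and the median was -0.03. Of 69 loci, 2 were lower without replicate 2 of day 3, and the medians without replicate 2 of day 0 and replicate 1 of day 3 were -0.06 and -0.08. rps14 lost its call without day 3 replicate 2 or day 0 replicate 1 (adjusted p from 0.085 to 0.14). psbJ lost its call without day 3 replicate 1 or 2 or day 0 replicate 3 (adjusted p from 0.079 to 0.28).

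Further loci with a symbol were picked from the large changes after their values were seen, and they are given as examples only. Among risers, ECS1 averaged 1277 at day 3 and 742 at day 0, UGT71B1 averaged 180.1 at day 3 and 97.4 at day 0, and EXO, a gene of cell expansion, had 415, 442 and 432 at day 3, against 221, 232 and 244 at day 0. The cell wall genes BGLU45 and BGLU46, whose enzymes act on lignin precursors, rose by 0.90 and 0.56, and EXPA20, an expansin that loosens walls, by 0.55. Among fallers, the metallothionein gene MT1C had 425, 451 and 473 at day 3, against 907, 1008 and 938 at day 0, and CHL, a chloroplast lipocalin, averaged 126 at day 3 and 290.1 at day 0. PIFI, a chloroplast protein of electron transport, averaged 45.6 at day 3 and 124 at day 0, and the cation exchanger gene CHX16 gave 3.70, 3.37 and 4.08 at day 3, against 34.2, 29.6 and 37.1 at day 0. TUB1, a beta-tubulin, averaged 74.5 at day 3 and 121 at day 0. Each of these had day 3 arrays on one side of all day 0 arrays, because the pick required it.

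Counts within gene families are to be read beside the 7.93% of all loci that rose and the 6.83% that fell. Of 9 tested loci drawn by gene synonym as beta-glucosidases, BGLU45, BGLU46 and BGLU40 rose and BGLU33, BGLU47 and BGLU16 fell. PYK10 is also a beta-glucosidase but was not among the 9, and it fell by 1.13, as given above. Of 4 tested methionine sulfoxide reductase B genes, MSRB5 and MSRB6 fell, at -1.66 and -0.56. MSRB9 rose with 204.2, 189.8 and 173 at day 3, against 122, 127 and 107 at day 0, a difference of 0.60 (adjusted p = 8.3e-06). The NRT1/PTR transporters had 3 of 8 members lower and none higher, the trichome birefringence-like cell wall genes 3 of 14 higher, and the TON1-recruiting TRM genes of microtubule arrays 3 of 11 higher, with none lower among the trichome birefringence-like or TRM genes. Of 11 tested ubiquitin-conjugating enzymes, UBC18, UBC20 and UBC22 rose and UBC37 fell. Of 14 tested serine carboxypeptidase-like genes, 2 rose and 2 fell. The IQ-domain genes had 2 of 12 members higher and the ubiquitin-specific proteases 1 of 12, with none lower in either family. None of 10 tested prenylated Rab acceptor genes was called. These families were chosen with their values known. MSRB6 lost its call without day 3 replicate 1 or day 0 replicate 2 (adjusted p from 0.066 to 0.077). AT1G33440 lost its call without day 3 replicate 1 or day 0 replicate 2 (adjusted p from 0.067 to 0.22). TRM20 lost its call without day 3 replicate 3 or day 0 replicate 1 or 3 (adjusted p from 0.064 to 0.077). TRM28 lost its call without day 3 replicate 2 or 3 (adjusted p from 0.063 to 0.084). UBC37 lost its call without day 3 replicate 1 or day 0 replicate 3 (adjusted p from 0.064 to 0.096).

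The later days show where these levels went, as a description, since days 3, 5 and 7 share the day 0 arrays. Several early changes continued. AGL42 averaged 14.8, 40.1, 72.9 and 129 at days 0, 3, 5 and 7, and FD averaged 31.8, 55.5, 74.9 and 93.1. JAL23 averaged 73.3, 161, 343 and 685 and THI2.1 17.3, 61.2, 272 and 787, so that most of their rise came after day 3. BCAT4 averaged 911, 262, 72.1 and 11.3, and PYK10 635, 281, 109.7 and 23.5. Other changes were nearly complete at day 3. GI averaged 148, 66.5, 51.6 and 56.1 over the same days, AT1G56300 242, 13.2, 11.3 and 7.25 and COR15A 117, 19.0, 15.98 and 7.75. A few turned back, such as THI2.2, with 131, 48.1, 16.2 and 72.3, MSRB5, with 76.9, 13.5, 16.02 and 58.0, and ARR15, with 199.8, 288, 226 and 139.

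**Figure D3:**
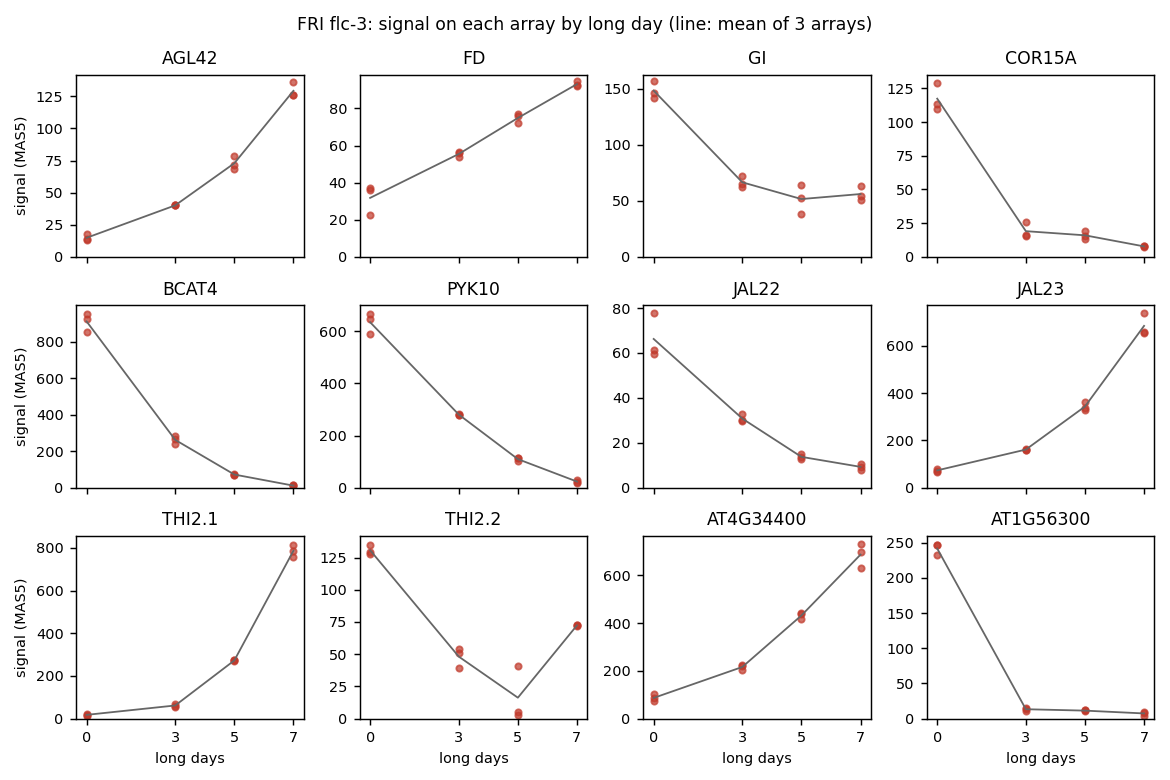
MAS5 signal in FRI flc-3 on each array after 0, 3, 5 and 7 long days for 12 loci, with points for the 3 arrays of a day and a line through their means. AGL42, FD, JAL23, THI2.1 and AT4G34400 climb through day 7, BCAT4, PYK10 and JAL22 decline through day 7, and GI, COR15A and AT1G56300 have most of their drop by day 3.

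The same step in the other lines shows what FRI flc-3 shares with them. At day 3 against day 0, 3526 probe sets (23.6%) were called in flc-3 and 2021 (13.6%) in FRI, each line measured on its own arrays. Of the 2502 of FRI flc-3, 1606 were called in the same direction in flc-3, which is 64.2% of the FRI flc-3 calls and 45.5% of the flc-3 calls, and 13 in the opposite direction. In FRI, 1223 were called in the same direction, 48.9% of the FRI flc-3 calls and 60.5% of those of FRI, and 3 in the opposite one. All 3 lines shared 1061 calls of the same direction, 42.4% of those of FRI flc-3. GI, the cold genes, AT4G33560, AT1G56300 and THI2.2 were called in the same direction in each line. For GI the responses were -0.99 in FRI flc-3, -1.14 in flc-3 and -0.95 in FRI. For AT4G33560 they were 1.92 in FRI flc-3, 2.38 in flc-3 and 1.45 in FRI, with called differences of 0.47 (adjusted p = 0.048) from FRI and -0.46 (adjusted p = 0.039) from flc-3. For AT1G56300 they were -3.14 in FRI flc-3, -2.55 in flc-3 and -2.70 in FRI, with a called difference of -0.60 (adjusted p = 0.028) from flc-3.

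The test of the difference between responses called far fewer probe sets. The day 3 response of FRI flc-3 differed from that of FRI, the line with a functional FLC, for 92 of 14912 probe sets (0.617%), 61 with a higher and 31 with a lower value in FRI flc-3. They include 41 named loci, of which 17 rose more and 13 fell more in FRI flc-3, 4 fell less, and 7 were not called in FRI flc-3. Without replicate 3 of FRI flc-3 day 0 the count was 73. The 31 lower were 18 without replicate 1 of FRI flc-3 day 3 and 19 without replicate 3 of FRI day 0.

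AGL42 was among the genes that rose more in FRI flc-3 than in FRI. It responded by 0.87 in FRI flc-3 against 0.23 in FRI, a difference of 0.64 ± 0.13 (SE, adjusted p = 0.0058), and the FRI arrays read 18.1, 19.5 and 15.3 at day 3 and 12.5, 14.8 and 11.1 at day 0. With only the arrays compared, that difference was not called (adjusted p = 0.097). For FD the responses were 0.60 in FRI flc-3 against 0.13 in FRI, and the difference of 0.47 (adjusted p = 0.23) was not called. AT5G44630 responded by 1.04 in FRI flc-3 against -0.11 in FRI, a difference of 1.15 ± 0.20 (SE, adjusted p = 0.0016), and AT4G19430 by 1.26 in FRI flc-3 against 0.40 in FRI, a difference of 0.86 ± 0.16 (SE, adjusted p = 0.0026). AT2G41410 had 391.7, 377 and 352 at day 3, against 208.1, 224 and 204.6 at day 0 in FRI flc-3, and 280.5, 301 and 289 at day 3, against 324, 305 and 280.0 at day 0 in FRI. Its difference was 0.83 ± 0.09 (SE, adjusted p = 3.6e-07), and the FRI response itself was not called (adjusted p = 0.66). EXO also rose more, with a difference of 0.47 (adjusted p = 0.0026). Among unnamed probe sets, 247553_at responded by 2.096 in FRI flc-3 against 0.22 in FRI, a difference of 1.88 ± 0.19 (SE, adjusted p = 8.6e-08), and 258497_at by 2.30 in FRI flc-3 against 1.502 in FRI, a difference of 0.79 ± 0.09 (SE, adjusted p = 3.3e-07). The scpl35 gene, a serine carboxypeptidase-like gene picked after its values were seen, fell more in FRI flc-3, with a difference of -0.45 (adjusted p = 0.041). AT4G33560 lost its call without day 3 replicate 1 or 2, day 0 replicate 2 or 3, FRI day 3 replicate 1 or 2, or FRI day 0 replicate 1, 2 or 3 (adjusted p from 0.054 to 0.18). scpl35 lost its call without day 3 replicate 1, 2 or 3, day 0 replicate 1 or 3, FRI day 3 replicate 1 or 3, or FRI day 0 replicate 1, 2 or 3 (adjusted p from 0.052 to 0.14).

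Genes of defence metabolism stood on both sides. PYK10 fell more in FRI flc-3, with responses of -1.13 in FRI flc-3 against -0.42 in FRI and a difference of -0.72 ± 0.10 (SE, adjusted p = 6e-05), and JAL22 likewise, with a difference of -0.61 (adjusted p = 0.011). NAI1 responded by -0.29 in FRI flc-3 against 0.47 in FRI, a difference of -0.76 (adjusted p = 0.035), with no call in FRI flc-3 itself. AT2G25450 and BCAT4 of the glucosinolate list fell less in FRI flc-3 than in FRI, with responses of -2.22 in FRI flc-3 against -3.03 in FRI and -1.74 in FRI flc-3 against -2.26 in FRI and differences of 0.82 (adjusted p = 0.0026) and 0.52 (adjusted p = 0.0072). At an offset of 1 neither difference was called, with adjusted p of 0.58 and 0.087. AT5G59330 responded by -0.61 in FRI flc-3 against 0.05 in FRI, and AT1G64890 by -0.97 in FRI flc-3 against -0.25 in FRI, differences of -0.66 (adjusted p = 0.00016) and -0.71 (adjusted p = 0.012). AT5G41400 and AT5G11910 had opposite signs in FRI, with differences of -0.79 (adjusted p = 0.029) and -0.64 (adjusted p = 0.023). NAI1 lost its call without day 3 replicate 1, 2 or 3, day 0 replicate 2 or 3, FRI day 3 replicate 1 or 2, or FRI day 0 replicate 1, 2 or 3 (adjusted p from 0.055 to 0.16). JAL22 lost its call without day 0 replicate 3 (adjusted p = 0.057). AT1G64890 lost its call without day 3 replicate 2, day 0 replicate 3, or FRI day 3 replicate 1 (adjusted p from 0.052 to 0.067). AT5G41400 lost its call without day 3 replicate 2 or 3, day 0 replicate 3, FRI day 3 replicate 1 or 2, or FRI day 0 replicate 1 or 3 (adjusted p from 0.066 to 0.13). AT5G11910 lost its call without day 3 replicate 3, day 0 replicate 2 or 3, FRI day 3 replicate 1 or 3, or FRI day 0 replicate 1 or 2 (adjusted p from 0.053 to 0.097).

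For a pair of loci with a called difference, the response was called in FRI and did not pass the test in FRI flc-3. AT4G27280 responded by 0.37 in FRI flc-3 against -0.90 in FRI, a difference of 1.27 ± 0.19 (SE, adjusted p = 0.00016), and AT4G12490, dim on all 6 FRI flc-3 arrays, by 0.10 in FRI flc-3 against -1.11 in FRI, a difference of 1.22 ± 0.21 (SE, adjusted p = 0.0012). The response of AT4G27280 in FRI flc-3 was called without replicate 1 of day 3 (0.51, adjusted p = 0.013) and without replicate 3 of day 0 (0.44, adjusted p = 0.047).

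**Figure D4:**
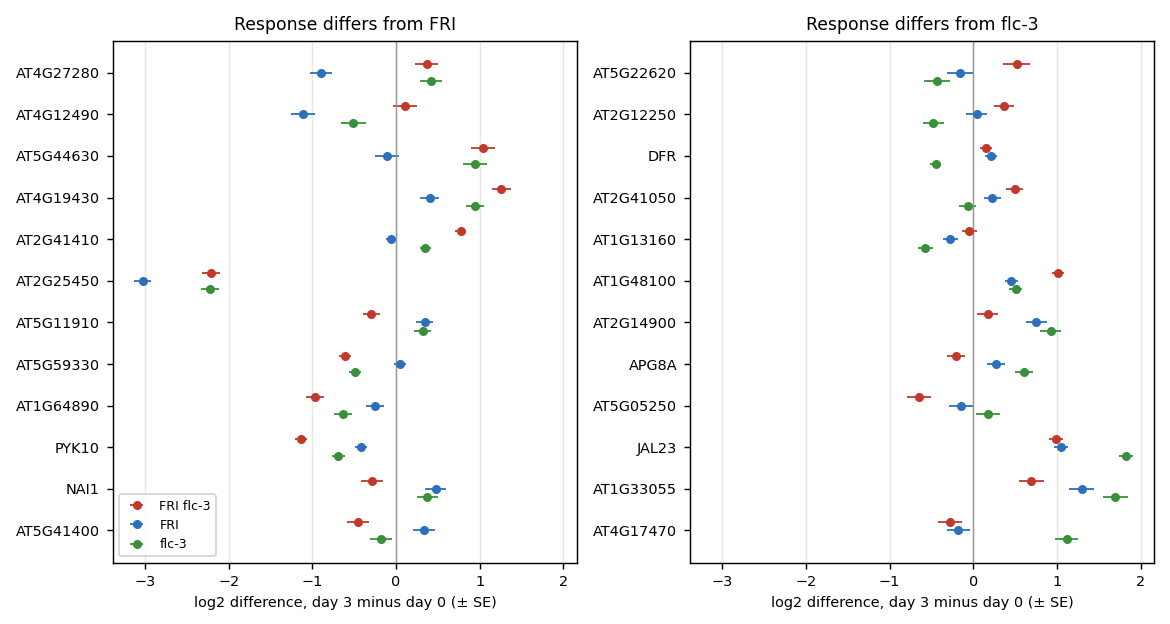
Day 3 minus day 0 log2 difference with its SE in FRI flc-3 (red), FRI (blue) and flc-3 (green) for the 6 loci of largest difference in each direction from FRI (left) and from flc-3 (right). For AT5G44630 and AT4G19430 red lies to the right of blue, and for JAL23, AT1G33055 and AT4G17470 green lies far to the right of red.

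Set against flc-3, which shares the FLC mutation but lacks the Sf-2 FRI allele, the response of FRI flc-3 differed for 133 of 14912 probe sets (0.892%), 41 higher and 92 lower. This count was less firm than the one against FRI. It was 64 without replicate 1 and 86 without replicate 2 of FRI flc-3 day 3, and 69 without replicate 3 of FRI flc-3 day 0. It was 69 without replicate 1 and 81 without replicate 2 of flc-3 day 3, and 68 without replicate 2 of flc-3 day 0. Of the 60 named loci, 8 rose more and 21 fell more in FRI flc-3, 7 rose less, 2 fell less and 22 were not called in FRI flc-3.

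AT4G17470 had responses of -0.28 in FRI flc-3 against 1.12 in flc-3 and a difference of -1.39 ± 0.20 (SE, adjusted p = 9.1e-05). The signals were dim in FRI flc-3, at 14.5, 11.2 and 15.1 at day 3, against 17.7, 23.04 and 18.9 at day 0, while flc-3 gave 33.7, 39.6 and 46.0 at day 3, against 17.0, 9.74 and 3.78 at day 0. JAL23 rose less in FRI flc-3, with 0.99 in FRI flc-3 against 1.83 in flc-3, a difference of -0.84 ± 0.12 (SE, adjusted p = 9.1e-05). So did AT1G33055, with a difference of -1.001 (adjusted p = 0.015), and ATG8F, with -0.41 (adjusted p = 0.016). APG8A, another ATG8 gene, responded by -0.21 in FRI flc-3 against 0.60 in flc-3, a difference of -0.81 ± 0.16 (SE, adjusted p = 0.0063). DFR responded by 0.15 in FRI flc-3 against -0.45 in flc-3, a difference of 0.60 ± 0.10 (SE, adjusted p = 0.00055), with flc-3 arrays at 375, 416 and 414 at day 3, against 527, 574 and 563 at day 0. AT1G48100 rose more in FRI flc-3 than in either line, by 1.01 in FRI flc-3, 0.51 in flc-3 and 0.46 in FRI, with differences of 0.51 (adjusted p = 0.012) from flc-3 and 0.56 (adjusted p = 0.0036) from FRI. PYK10 and JAL22 also differed from both, with differences of -0.44 (adjusted p = 0.027) and -0.59 (adjusted p = 0.017) from flc-3.

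Further differences from flc-3 were AT5G22620 at 0.95 (adjusted p = 0.029), AT2G12250 at 0.85 (adjusted p = 0.012), AT2G41050 at 0.57 (adjusted p = 0.047), AT1G13160 at 0.53 (adjusted p = 0.029), AT5G05250 at -0.83 (adjusted p = 0.036) and AT2G14900 at -0.76 (adjusted p = 0.027). Of genes described above, AT2G41410 (0.42, adjusted p = 0.016) responded more positively than in flc-3, and AT5G11910 (-0.61, adjusted p = 0.029), MT1C (-0.52, adjusted p = 0.049) and 263046_at (-0.89, adjusted p = 0.011) more negatively. GRXC1, a glutaredoxin gene picked after its values were seen, also fell more in FRI flc-3, with a difference of -0.71 (adjusted p = 0.013). In all, 23 probe sets, 10 of them named loci, differed in the response from both lines. These differences share the FRI flc-3 arrays, so they are not independent of each other. AT1G33055 lost its call without day 3 replicate 2, flc-3 day 3 replicate 2, or flc-3 day 0 replicate 2 (adjusted p from 0.051 to 0.053). ATG8F lost its call without day 3 replicate 2, flc-3 day 3 replicate 1, or flc-3 day 0 replicate 2 (adjusted p from 0.055 to 0.057). PYK10 lost its call without day 3 replicate 1 or 2, day 0 replicate 2 or 3, flc-3 day 3 replicate 1, 2 or 3, or flc-3 day 0 replicate 1 (adjusted p from 0.05 to 0.072). JAL22 lost its call without day 0 replicate 3, flc-3 day 3 replicate 1, or flc-3 day 0 replicate 2 (adjusted p from 0.056 to 0.076). AT5G22620 lost its call without day 3 replicate 1, 2 or 3, day 0 replicate 1 or 2, flc-3 day 3 replicate 2 or 3, or flc-3 day 0 replicate 1 or 3 (adjusted p from 0.057 to 0.11). AT2G41050 lost its call without day 3 replicate 1, 2 or 3, day 0 replicate 2 or 3, flc-3 day 3 replicate 1 or 3, or flc-3 day 0 replicate 1 or 2 (adjusted p from 0.054 to 0.14). AT1G13160 lost its call without day 3 replicate 1 or 3, day 0 replicate 2 or 3, flc-3 day 3 replicate 1 or 2, or flc-3 day 0 replicate 1 or 2 (adjusted p from 0.057 to 0.1). AT5G05250 lost its call without day 3 replicate 1 or 3, day 0 replicate 1 or 2, flc-3 day 3 replicate 1 or 3, or flc-3 day 0 replicate 1 or 2 (adjusted p from 0.068 to 0.12). AT2G14900 lost its call without day 3 replicate 2 or 3, day 0 replicate 3, flc-3 day 3 replicate 1 or 3, or flc-3 day 0 replicate 1 (adjusted p from 0.058 to 0.086). AT4G33560 lost its call without day 3 replicate 1, 2 or 3, day 0 replicate 1, 2 or 3, flc-3 day 3 replicate 1, 2 or 3, or flc-3 day 0 replicate 1 or 2 (adjusted p from 0.053 to 0.14). AT1G56300 lost its call without day 3 replicate 1 or 3, day 0 replicate 2, flc-3 day 3 replicate 1 or 2, or flc-3 day 0 replicate 2 or 3 (adjusted p from 0.053 to 0.083). AT2G41410 lost its call without day 3 replicate 1, day 0 replicate 3, or flc-3 day 0 replicate 3 (adjusted p from 0.051 to 0.062). AT5G11910 lost its call without day 3 replicate 3, day 0 replicate 2 or 3, flc-3 day 3 replicate 1 or 2, or flc-3 day 0 replicate 1 or 2 (adjusted p from 0.057 to 0.11). MT1C lost its call without day 3 replicate 1, 2 or 3, day 0 replicate 2 or 3, flc-3 day 3 replicate 1, or flc-3 day 0 replicate 1 or 2 (adjusted p from 0.058 to 0.19). GRXC1 lost its call without day 3 replicate 1 or day 0 replicate 3 (adjusted p from 0.051 to 0.052).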

How the data were processed

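Biotin-labelled RNA from apical regions was hybridised to ATH1 arrays, 1 array per sample, 36 in all. The deposited values are signal intensities per probe set, which the authors obtained from MAS5 according to the submitters' processing notes. Its version, scaling target and masking are not given in the sources used here. The trimmed mean of every FRI flc-3 array compared was 100.008 to 100.009, so no further scaling was applied.

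Of 22810 probe sets, 64 controls were left out, and 14912 were tested, those above the 40th percentile of an array on 3 or more of the 36. Log2 of the signal plus 16 was fitted with limma 3.58.1 in R 4.3.3, with 1 mean for each of 12 groups, 24 residual degrees of freedom, eBayes with an intensity trend, two-sided tests and Benjamini-Hochberg adjustment over all 14912. Differences between the responses of 2 lines were interaction contrasts of the same fit. In a test on simulated data the fit recovered 61 of 67 changes of 1.5-fold, added on the log2(signal + 16) scale with independent noise. A 1.5-fold change in the signal of a dim locus is smaller on that scale. Error shared between arrays was not simulated.

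Names came from an annotation table matched to RefSeq (assembly TAIR10.1), which gave 13436 probe sets a locus; 503 list several genes and were not named, and 8730 are not listed. Loci without a symbol there are given by locus ID. Of 647 loci in 32 gene lists 123 have a named probe set and 99 were tested, and 5 lists had no tested member (salicylate defence, heat shock, nitrate, vascular and root markers). A list of cytosolic ribosomal proteins could not be drawn up from this annotation. The samples, the lists and the tests were chosen with earlier results of these data known. Named were, in each direction, the 12 called loci that changed most, with arrays that did not overlap, up to 5 members of smallest adjusted p per list, all tested members of the flowering and clock lists, the 6 largest called differences per direction and line, and at most 2 unnamed probe sets per direction. Loci and families named beyond this rule were picked after their values were seen. The further loci with a symbol and a large change also had to have arrays that did not overlap. The search for promoter motifs was not run, since no sequences were used here. Alternatives are given under the dependence on processing.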

Additional observations from a re-analysis of the deposited data

Results flagged for a closer look

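The values below are log2 differences between the day 3 responses of 2 lines, each called by an interaction contrast in limma at an adjusted p under 0.05, and each drawn from the largest differences of its comparison. Against FRI, the response of FRI flc-3 was more positive for AT4G27280 (1.27), AT4G12490 (1.22), AT5G44630 (1.15), AT4G19430 (0.86), AT2G41410 (0.83) and AT2G25450 (0.82). It was more negative for AT5G41400 (-0.79), NAI1 (-0.76), PYK10 (-0.72), AT1G64890 (-0.71), AT5G59330 (-0.66) and AT5G11910 (-0.64). Against flc-3, the response of FRI flc-3 was more positive for AT5G22620 (0.95), AT2G12250 (0.85), DFR (0.60), AT2G41050 (0.57), AT1G13160 (0.53) and AT1G48100 (0.51). It was more negative for AT4G17470 (-1.39), AT1G33055 (-1.001), JAL23 (-0.84), AT5G05250 (-0.83), APG8A (-0.81) and AT2G14900 (-0.76). AT4G12490 and AT4G17470 were dim on all 6 FRI flc-3 arrays. Groups of 3 arrays are too small for a formal search for outlying samples, and none was made. Replicate 3 of FRI flc-3 day 0 was singled out above only because it correlated least with its group.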

How the results depend on the processing

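The alternatives were 3 other offsets, quantile normalization, a common 75th percentile, a filter at the 60th percentile or none, fits to fewer arrays, a replicate block, eBayes without the trend, array weights, a threshold of 0.01, and leaving out each array in turn; leaving out FRI and flc-3 arrays was chosen after seeing the data. No called named difference changed sign under any of them. Of 132 called named day 3 differences, 111 kept the call with only the 6 arrays compared and 118 to 123 when 1 FRI flc-3 array was left out. The differences between lines were less firm: of 21 called named differences from FRI, 10 kept the call with only the arrays compared and 14 to 20 with 1 array left out, and of 22 from flc-3, 6 kept it with only the arrays compared and 11 to 19 with 1 array left out. With only the arrays compared, the calls lost for day 3 minus day 0 were APG8H, APL3, AT1G33440, AT1G69570, AT2G12250, AT2G26690, AT5G11910, AT5G41400, ATG8D, ATG8E and AUR2. IQD22, JAL34, MCCA, PRL, psbJ, scpl25, TBL39, TRM20, TRM28 and UBC37 lost that call as well. The line differences lost in that setting were AGL42, AT1G48100, AT1G64890, AT4G12490, AT4G33560, AT5G11910, AT5G41400, BCAT4, JAL22, NAI1 and scpl35 for FRI and APG8A, AT1G13160, AT1G33055, AT1G48100, AT2G12250, AT2G41050, AT2G41410, AT4G33560, AT5G05250, AT5G11910, AT5G22620, ATG8F, GRXC1, JAL22, MT1C and PYK10 for flc-3. Without the filter, the calls lost were APG8H, AT5G11910, ATG8E, MCCA and psbJ for day 3 minus day 0, AT4G33560, AT5G41400, NAI1 and scpl35 for FRI and AT2G14900, AT2G41050, AT4G33560, AT5G05250, AT5G22620 and MT1C for flc-3. Under the 2 other scalings, they were APG8H and psbJ for day 3 minus day 0, AT4G33560 and scpl35 for FRI and AT2G41050 for flc-3. At an offset of 1 or 64, they were APG8H, AT5G11910, ATG8E, MSRB6 and WSD1 for day 3 minus day 0, AT2G25450, AT4G33560, AT5G41400, BCAT4, NAI1 and scpl35 for FRI and AT1G56300, AT2G41050, AT4G33560, AT5G05250, MT1C and PYK10 for flc-3.

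The day 3 count of 2502 was 1447 (708 higher, 739 lower) with only the arrays compared and 1519 (780 higher, 739 lower) at the stricter threshold. Its 116 changes of at least 2-fold were 250 at an offset of 1, 245 at the 10th percentile of all values and 41 at an offset of 64. With 1 array left out the count was 1903 to 2234, the higher 991 to 1241, the lower 912 to 1056 and the 2-fold changes 110 to 118.

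For the difference from FRI, the 92 calls were 37 (27 higher, 10 lower) with only the arrays compared and 48 (36 higher, 12 lower) at the stricter threshold, and the 31 lower were 47 at an offset of 64. The 12 differences of at least 2-fold were 20, 22 and 2 at offsets of 1, the 10th percentile and 64. With 1 array left out, the calls were 62 to 111, the higher 43 to 69, the lower 18 to 42 and the 2-fold ones 10 to 14.

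For the difference from flc-3, the 133 calls were 33 (12 higher, 21 lower) with only the arrays compared, 82 (54 lower) with only the arrays of the 2 lines, 79 (27 higher, 52 lower) with array weights and 29 (10 higher, 19 lower) at the stricter threshold. The 6 differences of at least 2-fold were 16, 16 and 1 at the same offsets. With 1 array left out, the calls were 64 to 162, the higher 25 to 64, the lower 39 to 98 and the 2-fold ones 4 to 9. A stricter threshold lowers the counts by construction. Leaving out replicate 1 of FRI flc-3 day 0 raised the calls to 111 for FRI and 162 for flc-3, so fewer arrays did not always give fewer calls, and the cause of these shifts was not tested.

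The replicate numbers do not mark a known pairing: deviations of same-numbered day 3 and day 0 arrays correlated at -0.12, 0.17 and 0.10, and not every array correlated best with its own number. With a replicate block the counts were 2480, 94 and 138. With the block UGT74B1 was called (adjusted p = 0.042), and APG8H (adjusted p = 0.057) and the difference of AT4G33560 from FRI (adjusted p = 0.053) were not. Under other scalings the share of calls that were higher was 51.3% and 48.2%, beside 53.6% as deposited. Signals near the array background limit what can be read from dim loci.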
